A study of Mus musculus with 12 samples.

Results

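Atf4, Ddit3, Atf3, Atf5, Cebpb, Cebpg, Trib3, Nupr1 and Ppp1r15a, the transcription factors and feedback regulators of the cellular stress response, were followed through the skeleton of embryonic (E) 16.5 mice with and without site-1 protease (S1P, gene Mbtps1). The 9 genes were chosen by name, and every probe annotated to them was taken, which gave 11 probes for 9 of the 19406 genes with a probe on the array. Atf4 and Cebpg have 2 probes each, and these are told apart here by the transcript in their annotation. Of the 11 probes, 10 passed the detection filter and were tested, the probe left out being Cebpg (NM_009884). The series holds 12 Illumina MouseWG-6 v1.1 arrays, and the values below are normalized log2 intensities unless stated otherwise.

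S1Pcko embryos (S1P f/f;Col2-Cre, C57BL/6) lack S1P in cells where the Col2 promoter drives Cre, that is, mainly in chondrocytes. Their WT littermates carried floxed alleles without Cre (S1P f/f or f/+) or a single floxed allele with it (S1P f/+;Col2-Cre). A WT embryo can thus carry Cre, and which of these genotypes an array had is not given in the labels. Tissue was rolled on filter paper to take off muscle and vessels, though muscle markers were still bright on the cartilage arrays. Each genotype had 2 arrays of chondroepiphyseal cartilage (WT arrays 1919 and 1927, S1Pcko arrays 1920 and 1928), 3 of entire long bones with their epiphyseal cartilage (WT arrays 1921, 1923 and 1929, S1Pcko arrays 1922, 1924 and 1930) and 1 of calvaria (WT array 1925, S1Pcko array 1926). Arrays 1927 to 1930 are marked as a second amplification. Both cartilage arrays of a genotype come from 1 embryo by the study's own account, and array 1929 repeats the extract of array 1923, so n counts arrays and the p values measure a spread that is technical in part.

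The members belong to the integrated stress response. In it, kinases that sense unfolded protein, amino acid shortage, haem shortage or viral RNA phosphorylate the translation factor eIF2, general protein synthesis slows, and the mRNA of Atf4 is translated all the same. ATF4 then acts as a basic leucine zipper (bZIP) factor, often paired with a C/EBP protein, on genes of amino acid supply and on Ddit3 (CHOP), Atf3, Trib3 and Ppp1r15a, the last of which reverses the phosphorylation of eIF2. Chondrocytes, which make and secrete collagen in bulk, use this response when matrix protein is held back in the endoplasmic reticulum.

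Per array, 20555 to 21978 of 46643 probes were detected. The array does not check the deletion, since the 2 tested probes of Mbtps1 read -0.22 and 0.06 in cartilage (log2 fold change, adjusted p = 0.653 and 0.892) and -0.18 and -0.18 in long bone (adjusted p = 0.727 and 0.623). Whether these probes lie in the deleted part was not looked up. Of 10 chondrocyte markers, 9 had a probe and 8 were detected on every array, Matn3 on none. In S1Pcko long bone 4 of 5 tested osteoclast markers and 3 of 3 tested erythroid markers were lower, and the summed intensity of 8 skeletal muscle markers was 37059 and 39059 on arrays 1924 and 1930 against 93495 to 97474 on the WT arrays and 106025 on array 1922. Markers of other cells moved in cartilage too. Of 6 tested osteoblast markers Ibsp rose (2.08, adjusted p = 5.15e-04), and of 4 tested epidermis markers Lor fell (log2 fold change -3.42, adjusted p = 1.36e-05). The summed intensity of the osteoclast markers was 4087 and 4511 in S1Pcko cartilage against 2357 and 2603 in WT, of 5 tested 0 passing, and that of the erythroid markers 17423 and 18076 against 23926 and 25046, of 3 tested 0 passing. Macrophage and granulocyte markers summed to 476 and 435 in S1Pcko cartilage against 1045 and 907 in WT, of 5 tested 0 passing. Chondrocyte markers summed to 99766 and 100310 against 118147 and 120093, of 8 tested 0 passing. Skeletal muscle markers summed to 66313 and 61136 in S1Pcko cartilage and 67995 and 64743 in WT, of 8 tested 0 passing. The part of these cells in the results below was not tested. In bulk tissue, fewer cells of a type and less RNA per cell cannot be told apart.

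S1Pcko cartilage and S1Pcko long bone had higher levels of nearly all of these regulators, and none was lower. In cartilage 8 of 10 tested probes, for 8 genes, rose past both thresholds (adjusted p under 0.05 and 2-fold) and 0 fell, where 1.07% of all 23744 tested probes rose and 1.34% fell. In long bone 8 of 10 probes, again for 8 genes, rose and 0 fell, against 0.615% and 0.413% of all probes. Atf3 and Trib3, counted in both tissues, passed the detection filter through their S1Pcko arrays alone. Trib3 rose most, at least 14.7-fold in cartilage and at least 9.62-fold in long bone. Ddit3 rose by 3.08 ± 0.18 and 2.77 ± 0.15 (log2 fold change ± SE), and Atf4 (NM_009716) by 3.46 ± 0.23 and 1.08 ± 0.19. The median over the 10 probes was 1.94 in cartilage and 1.53 in long bone, with medians of 0.02 and 0.00 over all tested probes (1.83 and 1.40 with Atf3 and Trib3, which no WT array detected, at their lower bounds). Both tissues were compared with limma, and the study had already singled out several of the members on these same arrays.

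**Figure D1:**
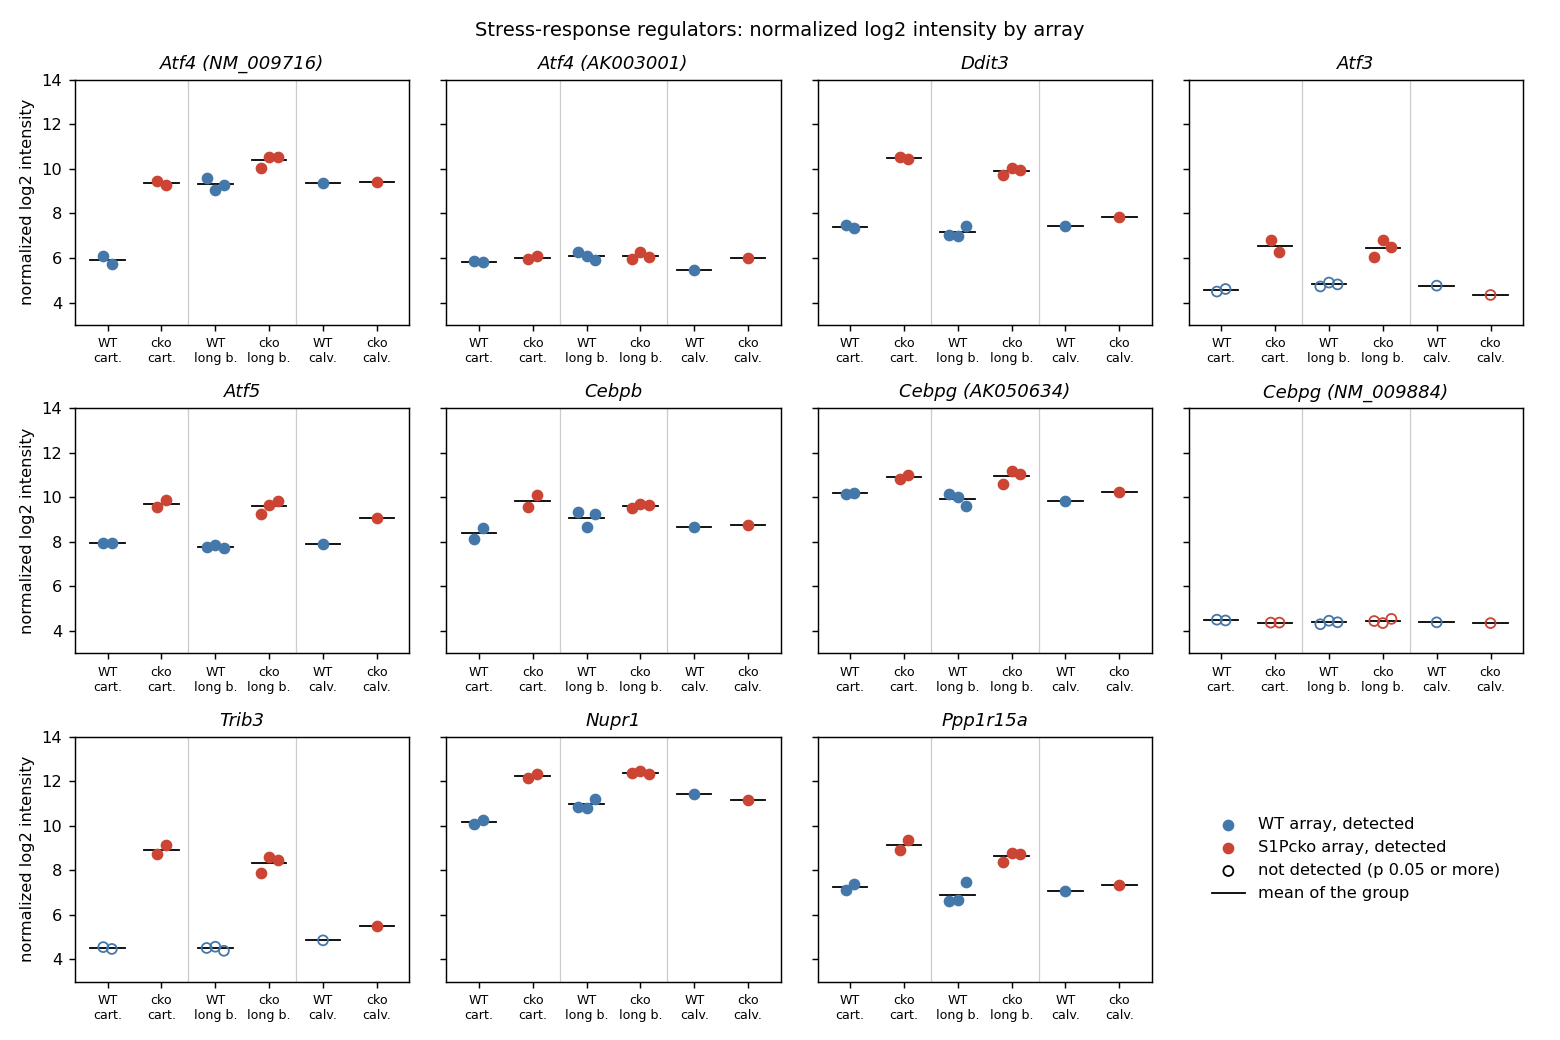
Normalized log2 intensity of each of the 11 probes on the 12 arrays, with WT in blue, S1Pcko in red, open circles for arrays where the probe was not detected and a bar at each group mean. In 8 panels the mean of S1Pcko cartilage lies at least 2-fold above that of WT, Atf4 (AK003001) and Cebpg (NM_009884) stay flat, and WT cartilage alone is low for Atf4 (NM_009716).

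The genes that ATF4 acts on carry short binding sequences near their start sites, and these are shown here for the members because nearly all of them rose together. The 10 RefSeq promoter windows of the members (GRCm38.p6, 250 bases before to 50 after the start, Atf5 having 2) were searched on both strands for the C/EBP-ATF composite core TGATGNAA, the cAMP response element TGACGTCA, the AP-1 site TGAGTCA and the C/EBP palindrome TTGCGCAA, which do not overlap in the matches found. The composite core stood in 3 of 10 member windows, those of Trib3, Atf3 and Nupr1, and in 3.97% of all 32851 windows. The cAMP response element stood in 1 (Ppp1r15a, 1.79% of all windows), the AP-1 site in 1 (Ddit3, 5.20%) and the palindrome in 0 (0.183%). The matches follow with up to 9 bases on either side, 5′ to 3′ on the strand of the gene and with the motif in capitals.
Trib3: agctcaggtTTACATCAgccgggcgg
Atf3: ttctcgcacTTGCATCAccaagtccg
Nupr1: agggccagaTTGCATCAgacagggct
Ddit3: cgcgcgcaTGACTCActcacctcc
Ppp1r15a: cctctccggTGACGTCAgcacagcgc
All 3 composite cores read as the reverse complement of the motif on the strand of the gene. Those of Atf3 and Nupr1 are the same 8 letters at the same distance, from position -110 to -103 before the start site, while that of Trib3 differs in 1 letter and lies just after it (15 to 22). The 250 bases before the start site of both are given to show the surroundings.
Atf3 (chr1:191183334-191183583, minus strand): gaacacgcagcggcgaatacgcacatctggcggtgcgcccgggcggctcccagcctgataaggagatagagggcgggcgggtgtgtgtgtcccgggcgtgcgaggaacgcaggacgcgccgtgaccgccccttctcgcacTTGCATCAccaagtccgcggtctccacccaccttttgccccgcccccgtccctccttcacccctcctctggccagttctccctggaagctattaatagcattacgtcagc
Nupr1 (chr7:126625471-126625720, minus strand): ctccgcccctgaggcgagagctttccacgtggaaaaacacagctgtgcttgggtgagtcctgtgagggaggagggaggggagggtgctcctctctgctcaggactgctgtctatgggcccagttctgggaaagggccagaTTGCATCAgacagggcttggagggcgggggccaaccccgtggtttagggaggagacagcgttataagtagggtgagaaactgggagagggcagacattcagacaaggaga
No match to these 4 motifs was found in the windows of Atf4, Atf5, Cebpb and Cebpg. A match is a description of the letters, and no binding was measured here.

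Atf4 (15:80255184-80257545), which codes for the central factor of the response, gave different answers with its 2 probes. Atf4 (NM_009716) read 6.10 and 5.72 in WT cartilage, 9.45 and 9.29 in S1Pcko cartilage, 9.57, 9.04 and 9.30 in WT long bone, and 10.05, 10.54 and 10.54 in S1Pcko long bone, each in the array order given above. In calvaria it read 9.36 (WT) and 9.39 (S1Pcko). It was detected on all 12 arrays. The low group was WT cartilage alone: the other 10 arrays lay between 9.04 and 10.54, and S1Pcko cartilage fell inside the range of WT long bone. The log2 fold change in cartilage was 3.46 (95% interval 2.95 to 3.96, adjusted p = 1.34e-05) and in long bone 1.08 (0.66 to 1.49, adjusted p = 0.0135). The WT cartilage values lay not far above the lowest detected signal of an array (4.96 to 5.09). The change in cartilage ran from 2.58 to 3.87 over the alternatives given at the end.

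Atf4 (AK003001) read 5.85 and 5.82 in WT cartilage, 5.95 and 6.08 in S1Pcko cartilage, 6.27, 6.07 and 5.90 in WT long bone and 5.95, 6.25 and 6.02 in S1Pcko long bone, with 5.45 and 5.99 in WT and S1Pcko calvaria. The groups were nearly level, and the long bone groups overlapped. Its change was 0.18 (95% interval -0.20 to 0.56, adjusted p = 0.621) in cartilage and -0.00 (-0.31 to 0.31, adjusted p = 0.996) in long bone, so that a 2-fold change lay outside both intervals. The probe was detected on all 12 arrays but read not far above the lowest detected signal of an array (4.96 to 5.09). Changes are measured least well there, and the intervals do not allow for this. Over the 12 arrays the 2 probes had a Pearson correlation of 0.369, as a description over arrays that share extracts. Which exons the probes cover was not analysed here, and the annotation gives AK003001, a cDNA clone, for the flat probe. The study also ran a PCR array of stress genes on fresh cartilage RNA, pooled from embryos of each genotype. Atf4 and Ddit3 were on that array, and the study reported Ddit3 and Insig1 alone as significantly changed.

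The change of Atf4 (NM_009716) differed between the tissues. It was larger in cartilage by 2.38 ± 0.30 (SE, adjusted p = 0.00569), and Atf4 was the 1 member probe of 10 to pass in this test, where 0.143% of all probes had a more positive change in cartilage and 0.198% a more negative one. In WT tissue alone, cartilage was 10.5-fold below WT long bone (log2 -3.39 ± 0.21, adjusted p = 7.98e-06), again as the 1 member probe of 10 past both thresholds (2.37% of all probes were lower in WT cartilage and 1.63% higher). Counted after its values were seen, Atf4 (NM_009716) was the 1 probe of 23744 for which both WT cartilage arrays lay as far below all other 10 arrays (a gap of 2.93). The SE and p of the difference count repeated amplifications as arrays. With these averaged the difference was 2.53 or 2.41, by the extract given to array 1930, and did not pass (adjusted p = 0.849 or 0.295), and it did not pass with unmoderated p values either (adjusted p = 0.0866). The WT cartilage level rests on 1 embryo, and the part of that embryo in the result was not tested.

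Ddit3 (10:127290793-127296291), which codes for CHOP, the factor tied to the late and cell death arm of the response, rose in both tissues. It read 7.48 and 7.33 in WT cartilage against 10.53 and 10.44 in S1Pcko cartilage, and 7.05, 6.99 and 7.41 in WT long bone against 9.74, 10.06 and 9.95 in S1Pcko long bone. All S1Pcko arrays of these tissues lay more than 4-fold above all WT arrays. The rise was 8.47-fold in cartilage (adjusted p = 5.61e-06) and 6.82-fold in long bone (adjusted p = 2.00e-06). In calvaria Ddit3 read 7.41 in WT and 7.82 in S1Pcko. The S1Pcko value lay above every WT array and below every S1Pcko array of the other tissues. WT cartilage and WT long bone overlapped (difference 0.26, 95% interval -0.11 to 0.63), unlike for Atf4.

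Atf3 (1:191170296-191183333), a bZIP factor that rises early in many kinds of stress, was detected in S1Pcko cartilage and long bone alone. In cartilage it read 4.49 and 4.61 (WT) and 6.81 and 6.25 (S1Pcko), and in long bone 4.72, 4.90 and 4.81 (WT) and 6.03, 6.83 and 6.50 (S1Pcko). Since no WT array detected it, its rise is a lower bound, set against the lowest detected signal of each array. It was at least 2.78-fold for the cartilage arrays and at least 2.62-fold for the long bone arrays. The fitted log2 changes, against WT values below detection, were 1.98 (adjusted p = 0.00137) and 1.64 (adjusted p = 0.00178). In calvaria it was not detected in either genotype (4.76 and 4.34).

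Atf5 (7:44812256-44816658), a relative of Atf4 whose mRNA is also translated when eIF2 is phosphorylated, rose in both tissues. It read 7.97 and 7.95 in WT cartilage, 9.55 and 9.86 in S1Pcko cartilage, 7.77, 7.88 and 7.71 in WT long bone and 9.27, 9.65 and 9.86 in S1Pcko long bone. The WT arrays spanned a narrow range and no S1Pcko array came near it. The rise was 3.36-fold (adjusted p = 7.29e-04) in cartilage and by 1.81 on the log2 scale (adjusted p = 1.58e-04) in long bone. The difference of both changes was -0.06 (95% interval -0.63 to 0.51). Atf5 was also higher in S1Pcko calvaria, at 9.06 against 7.90 in WT, where there is 1 array a genotype and no test.

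Cebpb and Cebpg code for C/EBP proteins, the bZIP partners that pair with ATF4 and CHOP. Cebpb (2:167688915-167690432) read 8.14 and 8.62 in WT cartilage against 9.57 and 10.11 in S1Pcko cartilage, and 9.34, 8.68 and 9.24 in WT long bone against 9.52, 9.69 and 9.67 in S1Pcko long bone. It rose 2.74-fold in cartilage (adjusted p = 0.00941) but did not pass in long bone, where the change was 0.54 (95% interval 0.08 to 1.00, adjusted p = 0.257). The difference of both changes did not pass either (0.91, adjusted p = 0.242). Cebpb was also on the study's PCR array of cartilage RNA and was not among the genes reported there as significantly changed. The call in cartilage was lost without WT array 1919 or S1Pcko array 1928 (1.22 and 1.18, adjusted p of 0.103 or less), and with unmoderated p values (adjusted p = 0.0693).

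Cebpg (7:35046422-35056566) was bright on its AK050634 probe in all tissues. That probe read 10.16 and 10.21 in WT cartilage, 10.84 and 10.98 in S1Pcko cartilage, 10.15, 10.02 and 9.61 in WT long bone and 10.61, 11.19 and 11.06 in S1Pcko long bone, with 9.84 and 10.23 in calvaria. The groups did not overlap in either tissue, yet the changes were small: 2.04-fold in long bone (adjusted p = 0.0149) and 1.65-fold in cartilage, which did not pass (0.73, 95% interval 0.23 to 1.22, adjusted p = 0.0941). Cebpg (NM_009884) was not detected on any of the 12 arrays and has no change to give.

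In long bone the rises of Atf4 (NM_009716) and Cebpg (AK050634) stood just past 2-fold and depended on single arrays. That of Atf4 missed a threshold without WT array 1923 or 1929 or S1Pcko array 1924 or 1930 (0.94 to 1.07, adjusted p of 0.0521 to 0.0803). That of Cebpg missed without WT array 1929 or S1Pcko array 1924 or 1930 (0.87 to 0.98, adjusted p of 0.0545 to 0.0877).

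The 3 feedback regulators, which act on the factors above or on eIF2, rose in both tissues. Trib3 (2:152337425-152344060), a pseudokinase that binds ATF4 and CHOP and dampens them, read 4.55 and 4.47 in WT cartilage and 4.52, 4.57 and 4.39 in WT long bone, where no array detected it. In S1Pcko tissue it read 8.71 and 9.16 (cartilage) and 7.90, 8.61 and 8.47 (long bone), far above every WT array. As bounds, the rises were at least 14.7-fold and at least 9.62-fold. The fitted log2 changes, against WT values below detection, were 4.42 (adjusted p = 2.45e-06) and 3.83 (adjusted p = 9.28e-07). In calvaria it was detected with S1Pcko (5.49) and not with WT (4.86), at least 1.35-fold apart.

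Nupr1 (7:126623246-126625470), a small stress-induced chromatin protein, was bright everywhere, with 10.07 and 10.26 in WT cartilage, 12.15 and 12.34 in S1Pcko cartilage, 10.86, 10.81 and 11.21 in WT long bone and 12.35, 12.45 and 12.32 in S1Pcko long bone. The S1Pcko groups of both tissues were near each other, while WT cartilage lay below WT long bone (-0.80, adjusted p = 0.0110, under 2-fold). The rise was 4.22-fold in cartilage (adjusted p = 7.47e-05) and 2.67-fold in long bone (adjusted p = 4.00e-04), and the difference of both did not pass (0.66, 95% interval 0.16 to 1.16, adjusted p = 0.223). In calvaria Nupr1 was 11.43 in WT and 11.14 in S1Pcko.

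Ppp1r15a (7:45522917-45526268), which codes for GADD34, the subunit that directs a phosphatase to eIF2, read 7.10 and 7.38 in WT cartilage and 8.93 and 9.36 in S1Pcko cartilage. In long bone it read 6.60, 6.65 and 7.46 in WT and 8.39, 8.78 and 8.71 in S1Pcko. Array 1929 stood apart within WT long bone, still below all S1Pcko arrays. The rise was 3.74-fold in cartilage (adjusted p = 0.00361) and 3.30-fold in long bone (adjusted p = 0.00259), and neither passed with unmoderated p values (adjusted p = 0.0511 and 0.0721). In calvaria the values were 7.07 and 7.33.

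**Figure D2:**
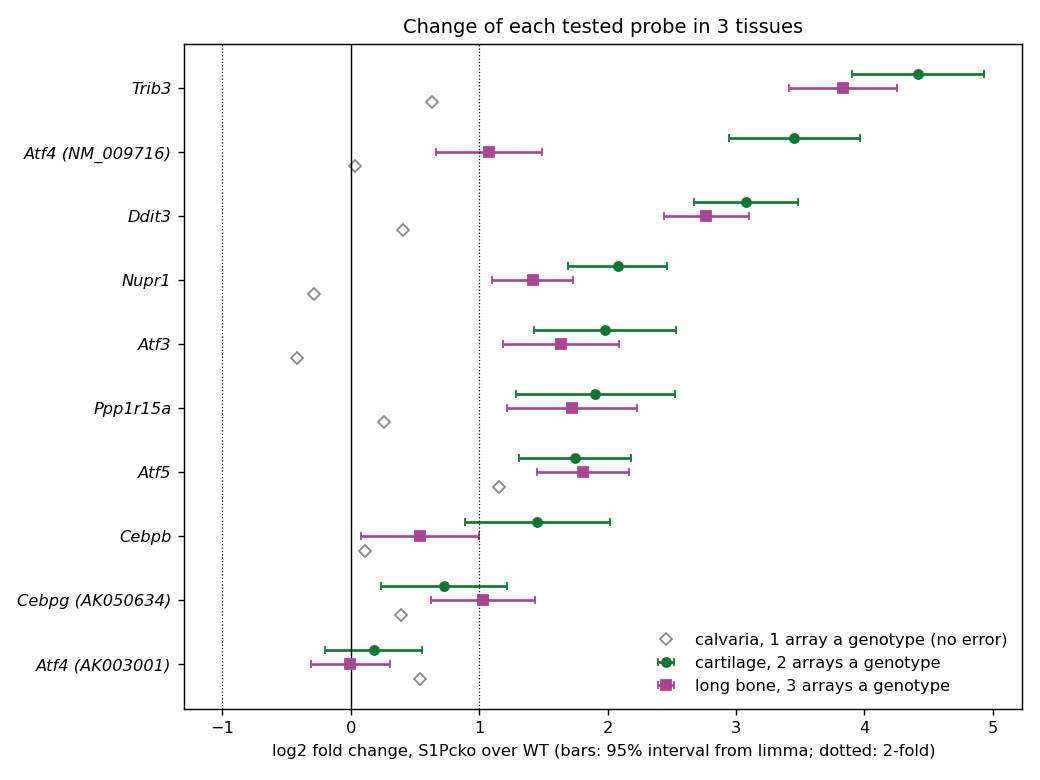
Log2 fold change of S1Pcko over WT for the 10 tested probes in cartilage (circles) and long bone (squares), with 95% intervals from limma, and the difference of 1 array a genotype in calvaria (open diamonds, no error). Atf4 (NM_009716) has the widest gap between the tissues, Trib3 and Atf3 are drawn at their fitted values although no WT array detected them, and in calvaria Atf5 alone passes the dotted 2-fold line.

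In calvaria the median difference of the members was smaller than in cartilage or long bone. Of the 10 probes 1, that of Atf5, was 2-fold or more higher in S1Pcko (log2 difference 1.16) and 0 were 2-fold or more lower, where 0.88% of all probes were that much higher and 0.295% that much lower. The median over the members was 0.32, and -0.02 over all probes. Atf3 was not detected in either genotype and Trib3 is given above as a bound. The other differences ran from -0.29 (Nupr1) to 0.54 (Atf4 (AK003001)). Chondrocyte markers, of the cells in which Col2-Cre acts, averaged 10.01 and 9.85 in calvaria against 11.74 to 12.21 in cartilage and 11.04 to 11.93 in long bone. The part of these cells in the calvaria differences was not tested. With 1 array a genotype the differences have no replicate check.

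Within S1Pcko long bone the 3 arrays were ordered alike for nearly all members. Array 1922 had the lowest value for 9 of 10 tested probes and array 1924 the highest for 9. The share of all tested probes with this order was not counted. Over all of them array 1922 lay 2-fold or more from array 1924 at 617 probes and from array 1930 at 609. Array 1922 is also the array whose muscle markers stood at the WT level and whose macrophage and granulocyte markers were highest in its group (summed intensity 3089 against 491 and 499.6). It was also the highest of the 3 for osteoclast markers (14856 against 7075 and 7427) and epidermis markers (1837 against 337 and 386). For chondrocyte markers it was the lowest (69750 against 96056 and 96284). The part of these tissues in the order was not tested. Without array 1922 all 8 calls in long bone remained. That fit keeps arrays 1924 and 1930 in the group, which correlated at 0.992 with 60 probes 2-fold or more apart. Whether these arrays share an extract is not settled by the titles. Their spread may thus be technical, and the calls that remained are no check between embryos.

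The rest of the pathway was examined in 6 gene lists, each gene by its brightest tested probe, and is read against all 12542 genes tested that way (in cartilage 1.17% higher and 1.53% lower, in long bone 0.773% higher and 0.486% lower). Upstream, 16 of 19 listed genes of the eIF2 kinases, eIF2, eIF2B and the eIF2 phosphatase were measured. Eif2ak4, Eif2s1 and Gcn1l1 had no tested probe. Of the 16 measured genes 0 passed in either direction in cartilage or in long bone, with medians of 0.09 and 0.15. Their largest changes in cartilage were those of Eif2b3 (0.73, adjusted p = 0.0374) and Eif2b2 (0.47, adjusted p = 0.158), subunits of the exchange factor of eIF2, Eif2ak3 (-0.60, adjusted p = 0.198), which codes for the kinase PERK, and Ppp1cb (-0.54, adjusted p = 0.243), a phosphatase subunit. The kinases are regulated as proteins, and their activity was not measured.

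Among other bZIP factors, 28 of 35 listed genes were measured, Atf6 not being among them. Of the 28, 0 rose in either tissue and 1, Creb3l3 (-1.16, adjusted p = 0.0201), fell in long bone. Creb3l3, which codes for the liver factor CREBH, is named after its value was seen. The largest changes in cartilage were those of Mafg (0.91, adjusted p = 0.00734, under 2-fold), Creb3l1 (0.83, adjusted p = 0.211), Nfe2l1 (0.59, adjusted p = 0.0752) and Nfil3 (0.56, adjusted p = 0.0715). Of the immediate early genes, which respond to handling and growth factors within minutes, 18 of 24 were measured and 0 passed in either tissue (medians 0.10 and 0.08). Klf4 (0.85, adjusted p = 0.0875), Fosl2 (0.71, adjusted p = 0.0263, under 2-fold), Hspa1b (-0.65, adjusted p = 0.118) and Fosb (-0.54, adjusted p = 0.222) had the largest changes in cartilage.

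Downstream, 24 of 29 listed targets of ATF4 outside the 9 members were measured. They rose widely, with 15 of 24 higher and 0 lower in cartilage (median 1.21) and 13 higher and 0 lower in long bone (median 1.08, or 1.16 and 1.04 with Fgf21 and Cth at their lower bounds). The medians over all genes were 0.01 and -0.01. Fgf21 and Cth, counted in both tissues, passed the detection filter through their S1Pcko arrays alone. Cth is counted by its fitted changes, while its lower bounds were 1.56-fold in cartilage and 1.78-fold in long bone, under the 2-fold threshold. Fgf21, a stress hormone, rose at least 40.8-fold in cartilage and at least 25.5-fold in long bone. Its fitted log2 changes, against WT values below detection, were 5.98 (adjusted p = 1.16e-08) and 5.32 (adjusted p = 4.52e-09). Slc7a3, a transporter of cationic amino acids, rose by 4.08 and 4.41 on the log2 scale, Chac1, an enzyme that breaks down glutathione, by 3.10 and 3.81, and Stc2, a secreted glycoprotein, by 2.36 and 2.24, all with adjusted p of 0.00525 or less. The study had singled out many genes of this list on the same arrays, so their count is not independent evidence of a direction.

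Of 7 measured CHOP targets and cell death genes outside the members 0 passed in either tissue. Trib3 and Ppp1r15a, which are known as targets of CHOP as well, are members and rose. Gadd45a, a growth arrest gene, read 0.80 (adjusted p = 0.0713) in cartilage and 0.82 (adjusted p = 0.0493, under 2-fold) in long bone, Gadd45b -0.65 and -0.10, Bid 0.59 and -0.21, and Tnfrsf10b, a death receptor, 0.16 and 0.17. The 7 are part of a list of 12, so that less than 80% was measured. Targets of ATF6 and XBP1, the other arms of the unfolded protein response, were measured for 10 of 16 genes. In cartilage 0 passed (median -0.12), with Herpud1 at 0.89 (adjusted p = 0.0286, under 2-fold), Hyou1 at 0.75 (adjusted p = 0.170), Hspa5 at -0.73 (adjusted p = 0.161) and Pdia6 at -0.63 (adjusted p = 0.155). In long bone Herpud1 (1.03, adjusted p = 0.00703) and Dnajb9 (1.22, adjusted p = 0.0378) rose. Dnajb9 averaged 5.06 in WT long bone, near the lowest detected signal of an array (4.96 to 5.09), where changes are measured least well. The Hspa5 probe averaged 6.54 in WT and 5.81 in S1Pcko cartilage, not far above that signal.

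**Figure D3:**
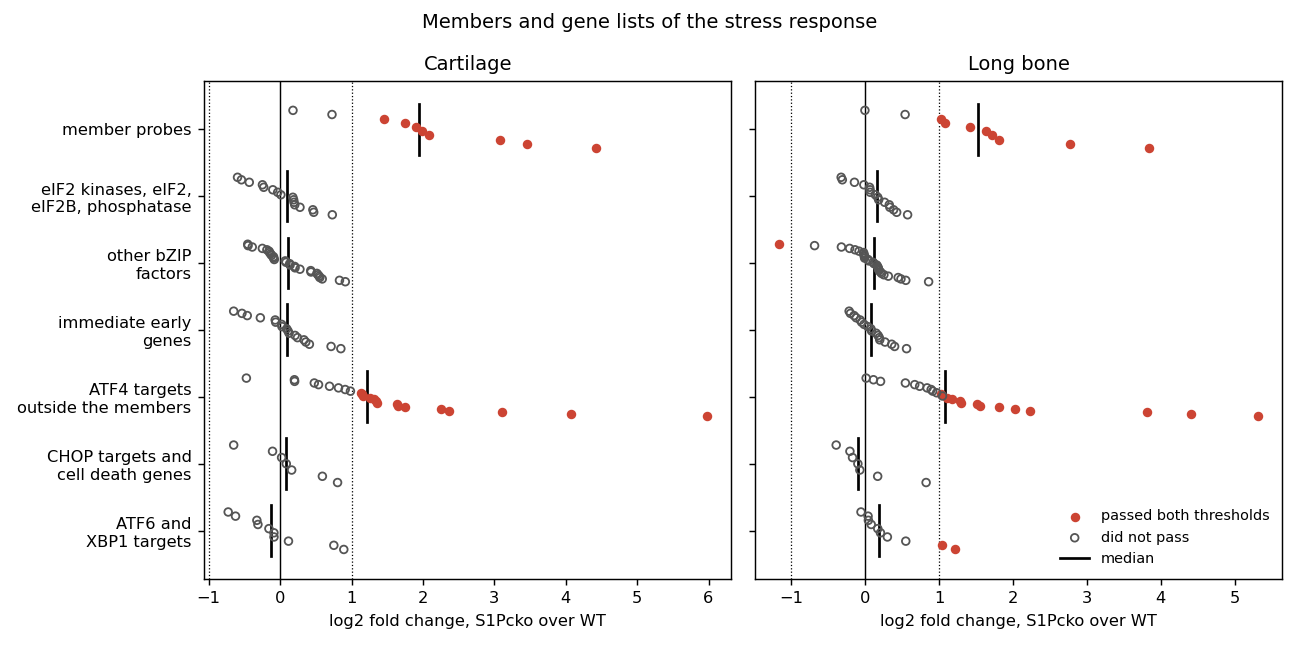
Log2 fold change of S1Pcko over WT in cartilage and long bone for the 10 tested member probes and for the measured genes of 6 lists, with red points for those past both thresholds and a bar at the median. Red points gather in the member row (median 1.94 in cartilage) and the row of ATF4 targets (1.21), while the other lists hold few or none.

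The members resembled each other over the 12 arrays apart from Atf4. Over the 28 pairs among the 8 tested probes of genes other than Atf4, Pearson correlations ran from 0.708 to 0.991, the highest being that of Ddit3 and Trib3. Atf4 (NM_009716) had correlations of 0.402 to 0.811 with these 8, and 0.498 with Ddit3. These are descriptions over arrays that share extracts and genotype. Outside the members, the probes most like Trib3 were those of Fibcd1 (0.992), Cyb5r2 (0.989), Slc6a9 (0.987), B4galnt2 (0.986) and Slc7a3 (0.986). Those most like Ddit3 were Fibcd1 (0.992), Hax1 (0.989), Fgf21 (0.988), Angptl6 (0.987) and Sars (0.986). Fibcd1, a membrane receptor that binds chitin, stood first for both, with log2 changes of 5.14 (cartilage), 4.51 (long bone) and 0.20 (calvaria).

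The number of calls rests on counting repeated amplifications as arrays. When the arrays of one extract were averaged, 2 members passed in cartilage and 2 in long bone with array 1930 taken as a repeat of 1924 (Ddit3 and Trib3), and 5 and 6 with it taken as a repeat of 1922, which the titles do not settle. Over all tested probes array 1930 lay closer to array 1924 (correlation 0.992, 60 probes 2-fold or more apart) than to array 1922 (0.980, 609 probes). Averaging leaves 1 value in each cartilage group, so that the cartilage calls then assume the spread of the long bone values. The difference of Atf4 (NM_009716) between the tissues passed under neither. The fold changes of the called probes kept their sign under both, Ddit3 for example at 3.08 in cartilage.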

How the data were processed

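The authors deposited intensity values of 46643 probes on 12 arrays, not normalized, with a detection p-value per probe and array, made from Trizol and RNeasy RNA labelled with an Ambion MessageAmp kit. They also deposited processed intensity values on a linear scale, used here as an alternative with a floor of 1. The scanner and its software are not given in the sources used here. Signals were background-corrected with neqc (limma 3.58.1, R 4.3.3, offset 16, control spread taken from the detection p-values) and quantile normalized over 12 arrays. Probes detected (p under 0.05) on at least 2 of 10 cartilage and long bone arrays were tested (23744). A limma model with 1 mean for each of 4 groups was fitted to 10 arrays (6 residual and 5.13 prior degrees of freedom), with p-values adjusted by Benjamini and Hochberg over all tested probes. The methods of the study give 2-way ANOVA, and its limits (FDR of 5%, change of 2-fold) were kept. Calvaria entered the normalization only. Changes of probes not detected in any array of a group are bounds, taken against the lowest detected signal of each array. Their p-values belong to the fitted changes. Groups come from the sample titles and genotype labels.

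Probes were named by the platform annotation, in which 32794 have 1 gene symbol, 55 several and 13794 none. Members, lists and motifs were chosen with earlier results of these data known. Named besides the members were up to 4 genes of each list with the largest change in cartilage, and the 5 probes most like Trib3 and Ddit3. All 9 members matched the RefSeq tables (GRCm38.p6), from which positions and promoters were taken. The fit was checked on simulated data with independent arrays, which does not cover arrays that share an extract. Replicate numbers pair the cartilage arrays and 1 long bone pair (correlation of deviations 0.466 and 0.0228). The cartilage pairs thus deviated in part alike, both giving the same value since deviations within so small a group mirror each other. Within each tissue the replicate number follows the amplification round, so that pairing and amplification cannot be told apart. The fit without the pairing was kept as the main one, and a block for the replicate number is among the alternatives. Alternatives were other background, scaling, filter and variance settings, the authors' values, averaged or single amplifications, and each array left out. Precision is limited by the number of arrays.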

Additional observations from a re-analysis of the deposited data

Results flagged for a closer look

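The change of Atf4 (NM_009716) between S1Pcko and WT was larger in cartilage than in long bone by 2.38 on the log2 scale (SE 0.30, adjusted p = 0.00569), and a difference between the tissues that passed its own test is why it is listed here. Leaving out each array in turn gave 2.19 to 2.57 with an adjusted p of 0.048 or less. It did not pass with amplifications averaged (adjusted p = 0.849 or 0.295), with the first amplification alone (0.864) or with unmoderated p values (0.0866), and the cartilage arrays repeat 1 embryo per genotype. Atf4 (AK003001), the other probe of the gene, had a difference of 0.18 (adjusted p = 0.740).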

How the results depend on the processing

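Under the alternatives, 828 of the values of single probes kept their direction and side of the threshold, 57 kept their direction and missed a threshold, 1 passed it and 14 changed sign. Those that changed sign were near 0 and passed in no setting. With the first amplification alone, 1 member probe passed in cartilage, 2 in long bone, 0 in the difference between tissues and 0 in WT cartilage against WT long bone, there being fewer arrays. In this setting and with averaging each cartilage group is 1 value, assumed to vary like long bone. With amplifications averaged and array 1930 taken with 1924, the numbers were 2, 2 and 0, and with 1922 they were 5 in cartilage and 0 in the difference. With unmoderated p values 6 passed in cartilage (Cebpb and Ppp1r15a lost), 4 in long bone and 0 in the difference. With the authors' values 2 passed in WT cartilage against WT long bone, Atf3 being added although none of these WT arrays detected it, so that no change is read from it. With these values Atf4 and Cebpg were lost in long bone. Atf3 was lost in both tissues without background correction and in long bone with an offset of 50, and the cause was not tested. With the replicate number as a block, 8 probes passed in cartilage, 8 in long bone, 1 in the difference and 1 between the WT tissues, and it changed no call.

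Leaving out each array gave 7 to 8 calls in cartilage, 6 to 8 in long bone and 1 to 1 in the other contrasts. Of the signs that changed, Atf4 (AK003001) in long bone read 0.0048 with median scaling and -0.0932 to 0.0915 with arrays left out. The difference of Atf5 read 0.0144 with averaging (1930 with 1924) and -0.222 to 0.0939, and that of Ppp1r15a -0.124 with the first amplification and -0.096 to 0.393. Trib3 in WT cartilage against WT long bone read -0.0935 with the authors' values, -0.0592 with the replicate block and -0.0304 to 0.062, on arrays that did not detect it. In calvaria Atf5 read 0.99 without background correction. Probes near background are measured least well.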
